A study of Homo sapiens with 2 samples.

Results

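Periostin (POSTN), its relative TGFBI, their matrix partners tenascin C (TNC) and the protease BMP1, and the lysyl oxidases LOX, LOXL1, LOXL2, LOXL3 and LOXL4 were followed on 2 arrays of 2 colours each. These 9 genes were taken by symbol, current or older, from 12445 named genes; all 9 were listed under their current symbols and were read by 10 of the 24267 probes. The CD26-depleted ACC-MESO1 cells, transfected with a construct against CD26 that is called shRNA in one place and siRNA in another, were set against control ACC-MESO1 cells. The CD26-transfected MSTO-211H cells, which received CD26 through the pLNCX2 vector, were set against control MSTO-211H cells. Both are established human mesothelioma lines, grown in RPMI medium with fetal calf serum, and the agent given to either control is not stated in the sources used here. The labels do not say whether the transfected cells were a pool or a clone.

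CD26, encoded by DPP4, is a dipeptidyl peptidase of the cell surface, and the design asked how its loss or gain changes gene expression in mesothelioma. There was 1 array per comparison and no dye swap, so no value below has a replicate, a standard error or a p-value. On both arrays the manipulated cells carried Cy3, and dye and manipulation cannot be told apart. Each value is a log2 ratio, manipulated cells over their control, normalized by the authors and centred on an array median of 0. The one measure of spread came from genes read by several probes, called here the SD between probes. Pooled over genes, it was 0.42 after depletion (566 genes) and 0.45 after transfection (471 genes). It compares probes within an array, so it leaves out variation between cultures, labellings and arrays. A value outside it may still lie within that variation. DPP4 stood at -3.92 in depleted cells and 5.51 in transfected cells, the lowest and the highest gene of its array. Ratios do not show whether a gene was present, so the mesothelial identity of the lines could not be checked against markers, and in bulk RNA fewer expressing cells and less RNA per cell cannot be told apart.

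Periostin and TGFBI are secreted proteins built around repeated fasciclin domains, and both bind collagens and cell surface integrins. Periostin also binds tenascin C, fibronectin and BMP1. BMP1, the procollagen C-proteinase, trims procollagens and cuts the propeptide off LOX. The lysyl oxidases are copper enzymes that oxidise lysines of collagen and elastin, the step from which the cross-links of the matrix form. Cancer-associated fibroblasts are a well-known source of periostin and LOX in tumour stroma, but mesothelioma cells can make matrix themselves.

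The promoters of POSTN, TGFBI and LOX are shown because these were the 3 genes past 2-fold on an array. Each is the 250 bases before the RefSeq transcription start farthest upstream (GRCh38.p14), written along the gene's strand. The windows are chr13:37598769-37599018 (minus strand) for POSTN, chr5:136028738-136028987 (plus strand) for TGFBI and chr5:122078260-122078509 (minus strand) for LOX. Capitals mark matches, on either strand, to TATAAA (the core promoter box bound by TBP), TGANTCA (AP-1), CATATG (an E-box), ACGTG (the core of the hypoxia response element) and GGAATG (TEAD).
POSTN: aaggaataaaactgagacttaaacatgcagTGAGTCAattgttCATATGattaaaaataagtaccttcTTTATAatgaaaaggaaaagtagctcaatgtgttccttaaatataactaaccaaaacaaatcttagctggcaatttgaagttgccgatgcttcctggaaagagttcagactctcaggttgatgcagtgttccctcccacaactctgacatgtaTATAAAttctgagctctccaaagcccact
TGFBI: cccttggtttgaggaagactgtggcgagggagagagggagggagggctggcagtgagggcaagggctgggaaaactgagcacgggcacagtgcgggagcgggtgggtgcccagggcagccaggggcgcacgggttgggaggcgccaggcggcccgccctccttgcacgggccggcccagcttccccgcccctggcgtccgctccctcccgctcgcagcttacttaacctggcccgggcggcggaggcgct
LOX: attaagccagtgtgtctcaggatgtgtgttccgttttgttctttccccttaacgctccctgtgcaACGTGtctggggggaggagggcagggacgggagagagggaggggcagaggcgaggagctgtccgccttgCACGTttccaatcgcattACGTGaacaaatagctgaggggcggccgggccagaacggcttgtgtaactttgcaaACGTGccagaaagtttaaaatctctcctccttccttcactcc
POSTN held an AP-1 match that begins 220 bases before the start, a CATATG at 207, and TATAAA at 29 and, on the other strand, at 182. LOX held 4 matches to ACGTG, which begin 185, 116, 98 and 42 bases before the start, and TGFBI held none of the 5 motifs. Among 27303 promoters of the same length, one per gene, TATAAA occurred at least once in 11.2% and TGANTCA in 6.57%. CATATG did so in 2.62%, ACGTG in 18.6% and GGAATG in 12.0%. The share with 4 matches to ACGTG was not counted. The windows also differed in base composition, with 36.4% G and C in POSTN, 55.2% in LOX and 72.8% in TGFBI, against a median of 57.6% over all promoters. Promoter sequences were matched for 7 of the 9 genes, all but BMP1 and LOXL2. Of the other matched genes, LOXL3 held 2 matches to GGAATG while TNC, LOXL1 and LOXL4 held no match. A match describes letters in a window and is not a binding site.

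POSTN had a log2 ratio of 3.57 in CD26-transfected over control MSTO-211H cells, 11.8-fold higher. It ranked behind DPP4 alone among 9359 genes there, but ANO2, at 3.56, was nearly level with it. The POSTN ratio in CD26-depleted over control ACC-MESO1 cells was -0.23, smaller than the SD between probes. It was 0.10 when that array was centred on ribosomal protein genes. In depleted cells 24.6% of genes were as low or lower, so periostin lay inside the bulk of that array, and in transfected cells it lay at the top. The difference of the 2 log2 ratios, transfection minus depletion, was 3.80, and DPP4 was the one gene of 8956 with a larger one. A single probe gave both values, and without channel intensities the level of periostin in the control MSTO-211H cells is not known.

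TGFBI, first found as a transcript induced by TGF-beta, had signs opposite to those of DPP4. Its log2 ratio was 0.85 in CD26-depleted over control ACC-MESO1 cells, 1.80-fold higher, a size reached by 4.90% of genes. In CD26-transfected over control MSTO-211H cells it was -1.05, or 2.07-fold lower, and 1.14% of genes were as low. Of the genes measured on both arrays, 6 of 8956, TGFBI included, were at least as far out on both in those directions. Centring on ribosomal protein genes gave 1.18 and -0.78, which put the depletion value past 2-fold and took the transfection value inside it. The periostin and TGFBI log2 ratios, for genes of one protein family, thus had opposite signs in the transfected cells.

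Of the matrix partners, TNC lay near 0 on both arrays and BMP1 was lower in transfected cells. TNC, a large glycoprotein of provisional and tumour matrix, had -0.25 in depleted over control ACC-MESO1 cells and -0.23 in transfected over control MSTO-211H cells, both inside the SD between probes. With ribosomal centring both TNC values crossed 0, to 0.080 and 0.037. BMP1 had 2 probes, at 0.33 and -0.27 in depleted over control cells, so its mean of 0.034 joins readings of opposite sign. That gap of 0.60 is not unusual, since 25.3% of the 495 genes with exactly 2 probes there were at least as far apart. The probe at -0.27 was also the one with a value in transfected over control MSTO-211H cells, where it read -0.89, or 1.85-fold lower. BMP1 was the 197th lowest of 9359 genes on that array.

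LOX, which cross-links collagen and elastin, was the member farthest from 0 after depletion. Its log2 ratio was 1.82 in CD26-depleted over control ACC-MESO1 cells, or 3.53-fold higher, the 57th highest of 10347 genes. In CD26-transfected over control MSTO-211H cells it was -0.33, inside the SD between probes of 0.45. The difference of transfection minus depletion was -2.15, the 26th lowest of 8956 genes.

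LOXL2, a lysyl oxidase with scavenger receptor domains that acts on basement membrane collagen, was above 0 on both arrays. It had 0.89 in depleted over control ACC-MESO1 cells, 1.86-fold higher and just short of the threshold, and 0.52 in transfected over control MSTO-211H cells. LOXL4, of the same subgroup, had 0.66 after depletion, a size reached by 7.98% of genes, and -0.37 after transfection. LOXL3, also of that subgroup, had 0.21 and -0.10, both smaller than the SD between probes. LOXL1, the elastin-directed relative of LOX, had no value after depletion and 0.0077 after transfection. The 4 lysyl oxidases measured in depleted cells were thus all above 0, in the order LOX, LOXL2, LOXL4 and LOXL3. Centring each autosome on its own median kept this order, with 1.81, 0.86, 0.63 and 0.22. The other alternatives could not change it, since each gene had 1 probe and ribosomal centring and the common spread treat all genes alike. LOXL2 and LOXL4 lay closer to each other than the SD between probes of 0.42, while LOX lay farther than that above them. LOXL3 lay below LOXL4 by only slightly more than that SD. The SD is that of single values and a difference of 2 values varies more, so LOXL3 and LOXL4 were not clearly separated.

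**Figure D1:**
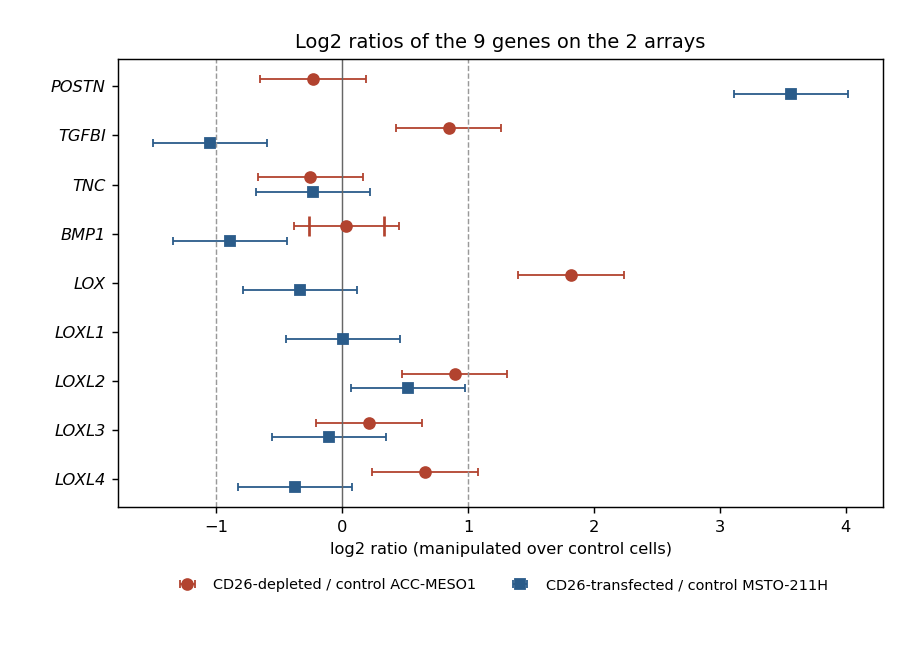
Log2 ratio of manipulated over control cells for each of the 9 genes, circles for CD26-depleted over control ACC-MESO1 cells and squares for CD26-transfected over control MSTO-211H cells. Bars are the SD between probes on that array (0.42 and 0.45), ticks are the 2 BMP1 probes, and dashed lines mark 2-fold. POSTN at 3.57 and LOX at 1.82 lie farthest from 0.

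Over the 9 genes, calls at 2-fold were few. In depleted over control ACC-MESO1 cells, 1 of 8 measured genes was at least 2-fold higher (LOX), against 3.31% of all genes, and 0 were at least 2-fold lower, against 1.56%. In transfected over control MSTO-211H cells, 1 of 9 was at least 2-fold higher (POSTN), against 4.09%, and 1 was at least 2-fold lower (TGFBI), against 1.37%. With so few genes these shares turn on 1 gene each. At a log2 ratio of 0.5, 4 of 8 were higher in depleted cells (LOX, LOXL2, TGFBI and LOXL4), against 12.8% of all genes, and 0 were lower, against 9.8%. In transfected cells 2 of 9 passed 0.5 (POSTN and LOXL2), against 13.1%, and 2 were at or below -0.5 (TGFBI and BMP1), against 9.4%.

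The median of the 9 genes was 0.44 in depleted cells, against 0.012 over all genes, and 6 of 8 were above 0, against 51.3% of all genes. In transfected cells the median was -0.23 (the value of TNC, 0.037 with ribosomal centring), against 0.0072, and 3 of 9 were above 0, against 50.7%. Of the 8 genes measured on both arrays, 6 had opposite signs, against 46.9% of 8956 genes, and 5 of them were above 0 after depletion and below 0 after transfection, against 24.0%. Those 5 were TGFBI, BMP1, LOX, LOXL3 and LOXL4. BMP1 was at -0.27 after depletion, and so not among them, when read by the probe with a value on both arrays, and LOXL3 was at 0.17 after transfection with ribosomal centring. The transfection values of LOX (-0.33) and LOXL4 (-0.37) were inside the SD between probes. POSTN was the one with the signs of DPP4, but its depletion value of -0.23 was inside that SD and 0.10 with ribosomal centring. TNC and LOXL2 had the same sign on both arrays.

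**Figure D2:**
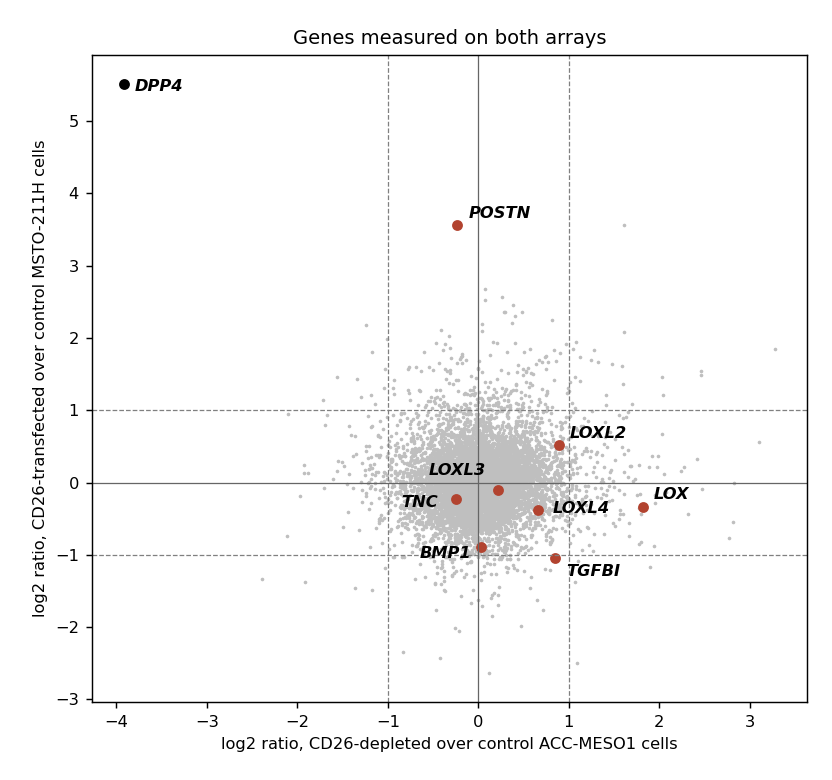
Each grey point is one of 8956 genes measured on both arrays, with the log2 ratio of CD26-depleted over control ACC-MESO1 cells across and that of CD26-transfected over control MSTO-211H cells upward. Red points are the 8 genes with both values and the black point is DPP4. Dashed lines mark 2-fold, and POSTN lies above the cloud at 3.57 while LOX and TGFBI lie at its lower right edge.

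Genes with the pattern most like each of these 3 were found by Euclidean distance in the plane of the 2 log2 ratios, over genes measured on both arrays. None lay within 0.5 of POSTN. The nearest was NDN at a distance of 0.94 (0.072 after depletion and 2.68 after transfection), then GYS2, ECE1, the matrix glycoprotein EFEMP1 and TMEM63C at 1.08 to 1.31. TGFBI had 68 genes within 0.5, and the nearest was TIMP3, an inhibitor of metalloproteinases held in the matrix (0.80 and -1.21). CD83, IL1RAPL1, EFEMP2 and CPA4 followed at distances of 0.18 to 0.24. EFEMP2, or fibulin-4, binds LOX and elastin precursors, and had 0.79 and -0.83. LOX had 32 genes within 0.5, the nearest being HLA-C (1.85 and -0.35), CCND2, ITPR3, TM4SF1 and KLF2 at distances of 0.041 to 0.18.

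Genes beside these 3 along the chromosome were read for the array on which each was past 2-fold. Around POSTN on chromosome 13, the 3 measured genes on each side ranged from -0.59 (SUPT20H) to 0.65 (CSNK1A1L) in transfected over control cells, and the 157 measured genes of the chromosome had a median of -0.25. Around TGFBI on chromosome 5, the nearest on either side were CXCL14 at 0.94 and SMAD5 at 0.25 in transfected over control cells, and SPOCK1, the third gene onward, was at 1.89. The other 3 were PITX1 at -0.55, MACROH2A1 at 0.11 and TRPC7 at -0.15. Around LOX on the same chromosome, SNX24, the next measured gene, was also higher in depleted over control cells, at 1.41. The other 5 neighbours of LOX lay between -0.64 (PPIC) and -0.031 (TNFAIP8). None of the 3 neighbours on either side of POSTN or TGFBI was past 2-fold in the same direction, while SNX24 beside LOX was.

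**Figure D3:**
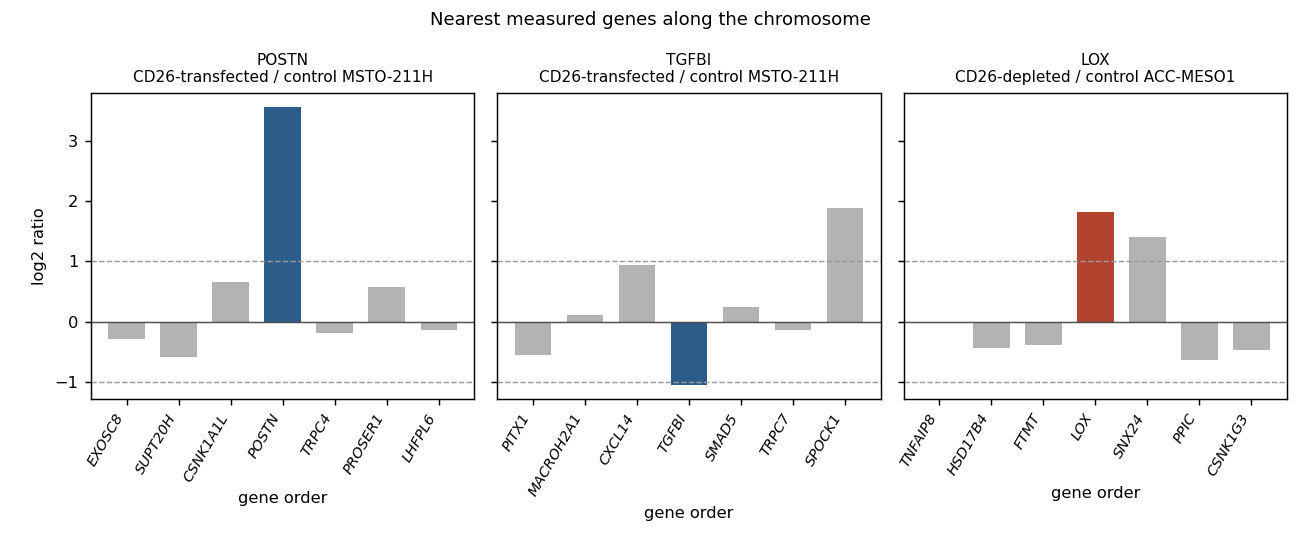
Log2 ratio of POSTN and TGFBI (CD26-transfected over control MSTO-211H cells) and of LOX (CD26-depleted over control ACC-MESO1 cells), in colour, with the 3 nearest measured genes on each side in grey, in chromosome order. Dashed lines mark 2-fold. SNX24 beside LOX at 1.41 and SPOCK1 near TGFBI at 1.89 are the neighbours past it.

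Genes that act with these 9 were taken as lists, and all list counts below are to be read against the following shares. Of all genes, 51.3% were above 0 after depletion and 50.7% after transfection. At least 2-fold higher were 3.31% and 4.09%, and at least 2-fold lower 1.56% and 1.37%. Enzymes that modify and fold collagen before secretion had a median of 0.37 in depleted over control ACC-MESO1 cells, with 13 of 16 above 0 and 1 at least 2-fold higher, the prolyl hydroxylase P3H2 (1.20). PLOD2, the lysyl hydroxylase of collagen telopeptides, was at 0.9997, just under the threshold. In transfected over control MSTO-211H cells that list had a median of 0.0033, from FKBP14 (-0.66) to PLOD2 (0.76), with none past 2-fold. Procollagen processing genes had medians of 0.027 over 8 genes after depletion, or -0.033 over those with a value on both arrays, and 0.14 over 5 after transfection. TLL2, a close relative of BMP1, was at 1.20 after depletion, and PCOLCE, which enhances BMP1 activity on procollagen, had 0.65 and 0.90.

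Fibrillar and fibril-associated collagens, substrates of lysyl oxidases and partners of periostin, had a median of -0.12 after depletion, or 0.21 with ribosomal centring. Of these, 3 of 10 were above 0 and none was past 2-fold, from COL2A1 (-0.56) to COL5A1 (0.76). After transfection the median was 0.11 over 7 genes, and COL3A1 was past 2-fold at 1.78. COL1A1 had 0.11 there and no value after depletion. So LOX stood at 1.82 in depleted cells, where none of the 10 measured collagens of the list was past 2-fold. COL7A1, a collagen outside the list, was past it there, at 1.14. POSTN stood at 3.57 in transfected cells beside COL3A1.

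Elastic fibre and latent TGF-beta binding genes had a median of 0.38 in depleted over control cells, or -0.031 over the genes with a value on both arrays, with 3 of 15 at least 2-fold higher, namely MFAP5 (1.96), FBN2 (1.36) and LTBP2 (1.17). The transfection array gave no value for those 3. After transfection the median was -0.26, or 0.011 with ribosomal centring, and EFEMP1 (2.45) was the one of 10 past 2-fold. ELN, the elastin substrate of LOX, had 0.18 and -0.44.

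Among other tenascins and matricellular genes, CCN2 (2.83), the tenascin TNN (1.59) and THBS1 (1.40) were at least 2-fold higher of 13 in depleted over control cells, and the proteoglycan BGN (2.20) was the one of 13 in transfected over control cells. Medians were 0.037 and -0.11, the last being 0.16 with ribosomal centring. FN1, the fibronectin that periostin binds, had -0.80 after depletion, the mean of probes at -0.85 and -0.75. Integrin genes had medians of 0.36, with 8 of 9 above 0, and 0.14, with 7 of 8 above 0, against 51.3% and 50.7% of all genes. The fibronectin receptor subunit ITGA5 (1.29) was past 2-fold in depleted cells. Of the subunits of periostin receptors, ITGAV had 0.071 and 0.15, ITGB3 had 0.64 and 0.96, and ITGB5 had 0.92 and 0.57 after depletion and transfection.

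TGF-beta signalling lies upstream of TGFBI and POSTN in many cells. The list, which holds activating and inhibitory genes, had medians of 0.10 in depleted over control and -0.16 in transfected over control cells. These were -0.0026 over genes with a value on both arrays and 0.11 with ribosomal centring. The inhibitory SMAD gene SMAD6 was the 1 of 12 at least 2-fold lower in depleted cells (-1.24), and PMEPA1 was highest there (0.84). None of 10 was past 2-fold in transfected cells, where the receptor TGFBR2 was lowest (-0.84) and SKI highest (0.80).

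**Figure D4:**
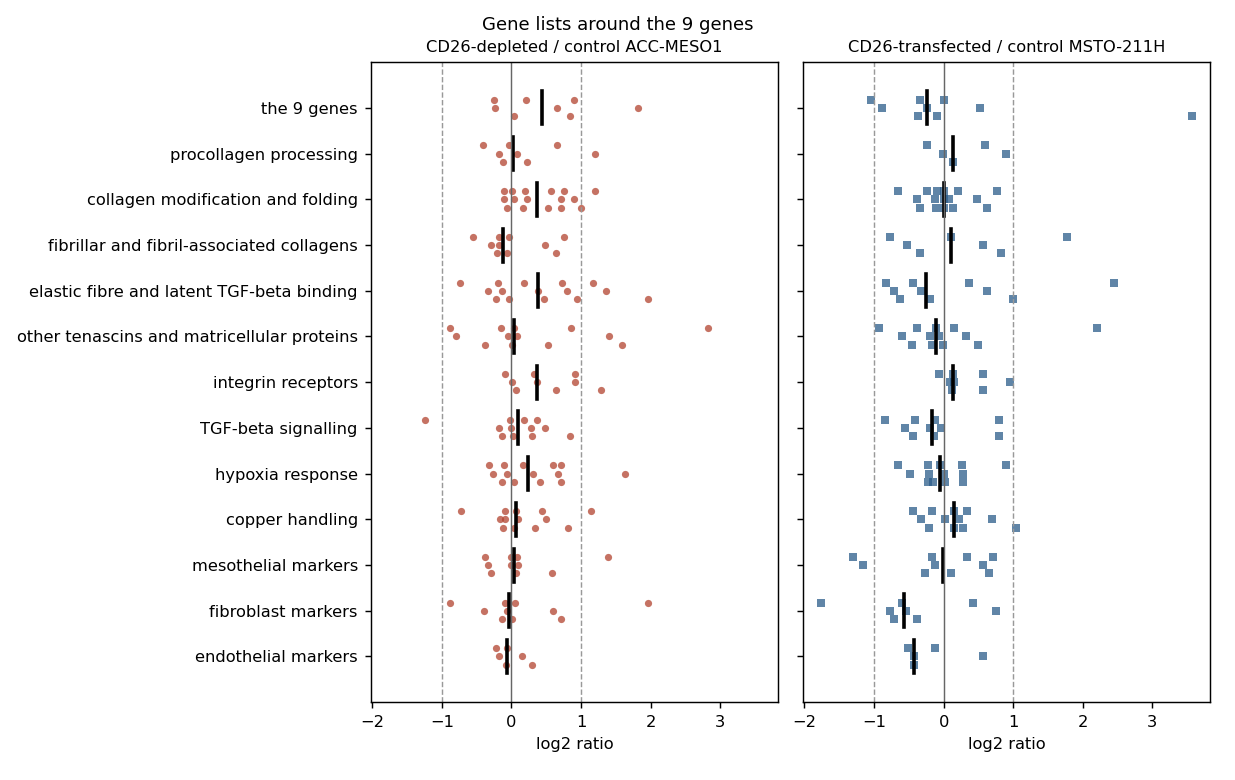
Log2 ratios of the measured genes of each list, circles at left for CD26-depleted over control ACC-MESO1 cells and squares at right for CD26-transfected over control MSTO-211H cells. Black bars are medians and dashed lines mark 2-fold. The 9 genes have medians of 0.44 and -0.23, and collagen modification genes 0.37 and 0.0033.

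Fibroblast markers, given because fibroblasts are a source of periostin and LOX, were mostly below 0 where POSTN was high. In transfected over control MSTO-211H cells 2 of 8 were above 0 with a median of -0.57, from FAP (-1.76) to THY1 (0.75). In depleted over control ACC-MESO1 cells, beside LOX, 5 of 10 were above 0 with a median of -0.028, or 0.30 with ribosomal centring, from LUM (-0.89) to MFAP5 (1.96), and FAP was at 0.71. The list shares MFAP5, LUM, DCN, FBLN1 and COL14A1 with the lists above. Its summed level in each group was not available from ratios. Endothelial markers had medians of -0.069 over 6 genes, or 0.26 with ribosomal centring, and -0.42 over 5, with none past 2-fold.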

How the data were processed

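Human mesothelioma RNA was measured on 2 arrays of 2 colours, with CD26-depleted over control ACC-MESO1 cells on one and CD26-transfected over control MSTO-211H cells on the other. The deposited values are normalized log2 ratios, per the labels' sample descriptions, which also give their direction as 3 over 1 and 4 over 3. The number 3 names the CD26-depleted sample in one ratio and the control in the other; the cell line labels name that control as MSTO-211H. Background correction, normalization method and scanner: not given in the sources used here. A value was deposited for 19622 of 24267 probes after depletion and for 17737 after transfection. The probe annotation gave 1 symbol for 13395 probes, and the other 10872, with no symbol or with several, were left out. Symbols were updated through RefSeq (GRCh38.p14), with 10076 current, 2285 updated and 113 kept because of several candidates. Probes of a gene were averaged (Python 3.11.15, pandas 2.3.3), giving 10347 and 9359 genes. A call was an absolute log2 ratio of 1 or more (2-fold), with no test; with 1 array per comparison, the arrays' number limits the precision. The gene steps were run on simulated data with noise well below the SD between probes and made effects past the threshold. That run checks the code and does not measure the error of the calls.

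The members and the 12 lists (168 genes, 135 measured) were chosen with earlier results of these data known. Named were all members, DPP4, and list genes past 2-fold or else the highest and lowest. Also named were the 5 nearest genes in the plane of both ratios and 3 neighbours on each side. Other list genes (such as FN1, PLOD2, PCOLCE, COL1A1, ELN, HIF1A, ATP7A and the periostin receptor subunits) were chosen after values were seen. The same holds for COL7A1, outside the lists, and for the promoter motifs. Alternatives were other centrings, a common spread, other probe rules, thresholds of 0.5 and 1.5, listed symbols, and genes measured on both arrays.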

Additional observations from a re-analysis of the deposited data

How the results depend on the processing

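Across 104 recomputed log2 ratios of the 9 genes, none moved by as much as the SD between probes. That was largely fixed in advance. All members but BMP1 had 1 probe, so the probe rules and listed symbols returned the same value. The ribosomal shifts are smaller than that SD, and the common spread scaled values by only 1.02 after depletion and 0.98 after transfection. The sign changed in 6 of the 104, all of values inside the SD between probes. Centring on 33 ribosomal protein genes, which moved all values up by 0.33 after depletion and 0.27 after transfection, turned POSTN to 0.10 and TNC to 0.080 after depletion and TNC to 0.037 and LOXL3 to 0.17 after transfection. Autosome centring put LOXL1 at -0.038 after transfection, and BMP1 read by its shared probe, an alternative chosen after seeing the data, was at -0.27 after depletion. POSTN ranged from 3.51 to 3.83 and TGFBI from -1.16 to -0.78 after transfection, and LOX from 1.81 to 2.15 after depletion.

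With ribosomal centring, 3 members passed 2-fold upward after depletion (1 as deposited) and 0 passed it downward after transfection (1 as deposited). All-gene counts became 800 higher and 43 lower after depletion (342 and 161 as deposited), and 711 and 47 after transfection (383 and 128 as deposited). A threshold of 0.5 gave 4 members higher after depletion, and 2 higher and 2 lower after transfection, with 1323 and 1014 genes after depletion and 1224 and 880 after transfection. A threshold of 1.5 left 0 members lower after transfection, with 125 and 22 genes after depletion and 141 and 22 after transfection. Among genes with values on both arrays, 203 were 2-fold higher after depletion. List medians moved by more than the SD between probes over the root of the list size in 26 of 144 recomputations. The shifts follow from the construction of each alternative. No paired analysis was possible because each group has 1 array.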

Other observations

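Genes of the hypoxia response, of which LOX and P4HA1 are known targets, had a median of 0.24 in depleted over control ACC-MESO1 cells. The median was 0.57 with ribosomal centring, and 9 of 14 were above 0, against 51.3% of all genes. ANGPTL4 (1.63) was the member past 2-fold and ADM was at 0.71. The regulators HIF1A (-0.26) and EPAS1 (-0.32) were inside the SD between probes. Both were smaller in size than the ribosomal shift of 0.33. In transfected over control MSTO-211H cells the median was -0.057 over 13 genes, or 0.21 with ribosomal centring, and none was past 2-fold, from SLC2A1 (-0.66) to ANGPTL4 (0.90).

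Copper handling genes were listed because lysyl oxidases are copper enzymes, though not every gene of the list serves them. The medians were 0.071 over 13 genes after depletion and 0.15 over 12 after transfection. The metallothionein MT2A (1.14) was past 2-fold after depletion and MT1E (1.05) after transfection, and both belong to a family of close paralogs whose probes can cross-hybridise. ATP7A, which loads copper onto LOX in the secretory pathway, had -0.17 and 0.22, and COX17 was lowest at -0.72 and -0.44. The probes of MT1F disagreed, at -0.13 and 1.01 after depletion.

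Mesothelial markers had medians of 0.031 after depletion and -0.0077 after transfection, over 10 genes each, the last being 0.26 with ribosomal centring and 0.012 with autosome centring. Of 10 each, 6 were above 0 after depletion and 5 after transfection, against 51.3% and 50.7% of all genes. The intelectin ITLN1 (1.38) was past 2-fold in depleted cells. Mesothelin, MSLN (-1.31), and KRT18 (-1.16) were past it, lower, in the transfected cells in which POSTN was high. The highest there were KLK11 (0.71), UPK3B (0.66) and WT1 (0.57). The part of these markers in the periostin value was not tested.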
